A study of Macaca mulatta with 304 samples.

Results

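The 16 rhesus macaques of the higher dose (HD) arm received 10.7 Gy to the thorax, and the blood that each gave on Day 30 was compared between animals that were followed for a shorter and for a longer time. An animal counted as shorter followed if its last blood draw in the series was before Day 90 and as longer followed if it was on Day 90 or later, which gave 11 shorter and 5 longer followed animals. These 16 samples, 1 per animal, are 16 of the 304 samples of the series, which come from 28 animals. The other 12 animals formed the lower dose (LD) arm of 9.8 Gy and are used only as a second set of Day 30 values. RNA of whole blood was depleted of ribosomal RNA and sequenced, and the deposited table holds read counts per gene. All animals were healthy adults of 3 to 5 years of the Chinese sub-strain, and the pre-irradiation sample of Day -2 served as the control.

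The last draws of the shorter followed animals were taken on Day 30 in 1 animal, Day 40 in 3 animals, Day 60 in 5 animals, and Days 71 and 77 in 1 animal each. Those of the longer followed animals fell on Day 90, 94, 120, 129 and 270, and these 5 animals are named below by that day. The day of the last draw is not a recorded date of death. Some animals were sampled once more when they met criteria for euthanasia, and animals left at the end of the study gave their last sample on Day 270. By the paper all animals were alive after Day 40, so the last draws of Days 30 and 40 were not at death. It also reports that in 3 of its 4 study groups deaths were seen only after Day 90, and describes earlier ones in higher dose males. Last draw and survival therefore need not match, also in the 4 shorter followed females. Sex and follow-up overlapped. Of the shorter followed animals 7 were male and 4 female, while of the longer followed animals 1 was male (last drawn on Day 90) and 4 were female, so that sex was a term in the comparison. All animals received analgesics up to Day 25, and dexamethasone was given to animals with rapid breathing. Which of the 16 animals received it is not given in the sources used here.

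Irradiation of the thorax injures the lung over weeks to months, first as an inflammatory pneumonitis and later as fibrosis, and the blood passing through the chest and the marrow of the ribs and sternum are exposed as well. RNA of whole blood is a mixture from granulocytes, monocytes, lymphocytes, platelets and young red cells. Platelets are shed by megakaryocytes and carry RNA from them, which makes genes of platelet receptors and granules a measure of platelet RNA in a blood sample. In such a sample a smaller number of cells of a type and less RNA per cell cannot be told apart.

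Reads counted on genes ranged from 4096066 to 16238083 in the shorter followed and from 7132453 to 7903991 in the longer followed animals. The 3 libraries of lowest depth, with 4096066 to 4788362 counts, were all from shorter followed males, last drawn on Days 60, 60 and 71, and the next lowest held 6426751. On the first principal component, which carried 22.4% of the variance of log2 CPM (counts scaled by the upper quartile and by library size), the same 3 libraries stood apart from the other 13, between 45.3 and 69.3 against -34.7 to 11.8. Comparisons are therefore also given without them. The summed level of 9 Y chromosome genes was between 482 and 750 CPM in the 8 males and at most 0.53 CPM in the 8 females, which matched every sex label. The names of all 28 Day 30 libraries end in the same suffix, S0.

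**Figure D1:**
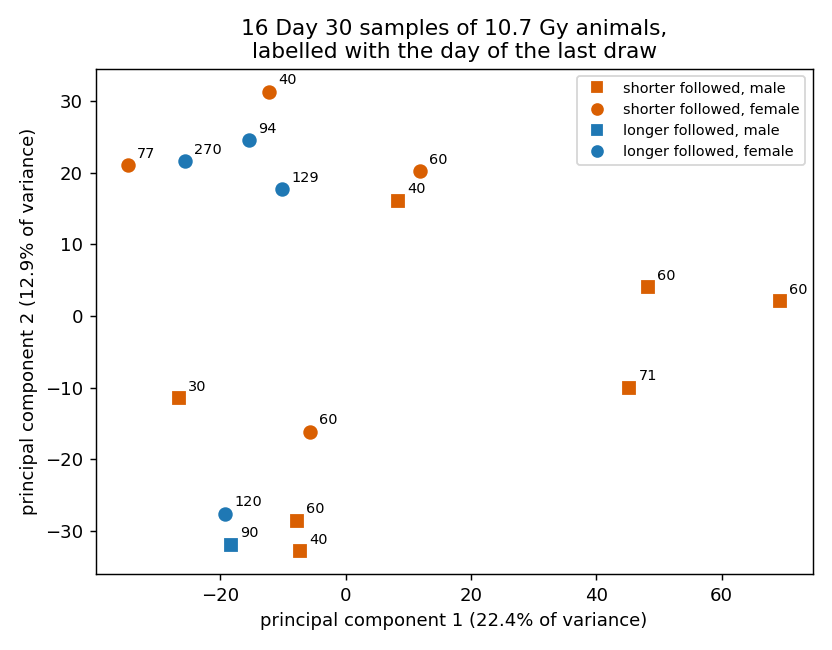
First and second principal component of log2 CPM over 13751 genes for the 16 Day 30 samples, with the share of variance on each axis. Orange points are shorter and blue points longer followed animals, squares are males, circles are females, and the number is the day of the last draw. The 5 longer followed animals lie among the shorter followed ones, and 3 shorter followed males lie between 45.3 and 69.3 on component 1.

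On Day 30 no gene passed the test between shorter and longer followed animals. Of 13751 genes tested 0 were called by edgeR (0% of those tested) at an adjusted p of at most 0.05 and a change of at least 1.5-fold, and the smallest adjusted p was 0.966. DESeq2 also called 0 genes, with a smallest adjusted p of 0.290. At an unadjusted p under 0.05 edgeR found 415 genes (3.02%) and DESeq2 499 genes. By edgeR, 1.7% of all genes had higher and 1.32% lower values in the shorter followed animals at that p. Follow-up took up 5.27% of the total variance of log2 CPM after sex, and sex by itself took up 10.9%. Exchanging the follow-up labels within each sex, over all 560 arrangements, gave a share at least as large with an exact one-sided permutation p of 0.673. The median standard error of a gene's log2 fold change was 0.23, against 0.58 for a change of 1.5-fold. The confidence intervals below are for each gene by itself, without adjustment for the number of genes. Most genes below were named for a small p in these same data. Their fold changes can therefore be too large and their intervals too far from 0. Without the 3 libraries of lowest depth edgeR again called 0 genes, with 421 at an unadjusted p under 0.05. All log2 fold changes below are shorter minus longer, adjusted for sex, and every gene named had an adjusted p of 0.966 or higher.

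**Figure D2:**
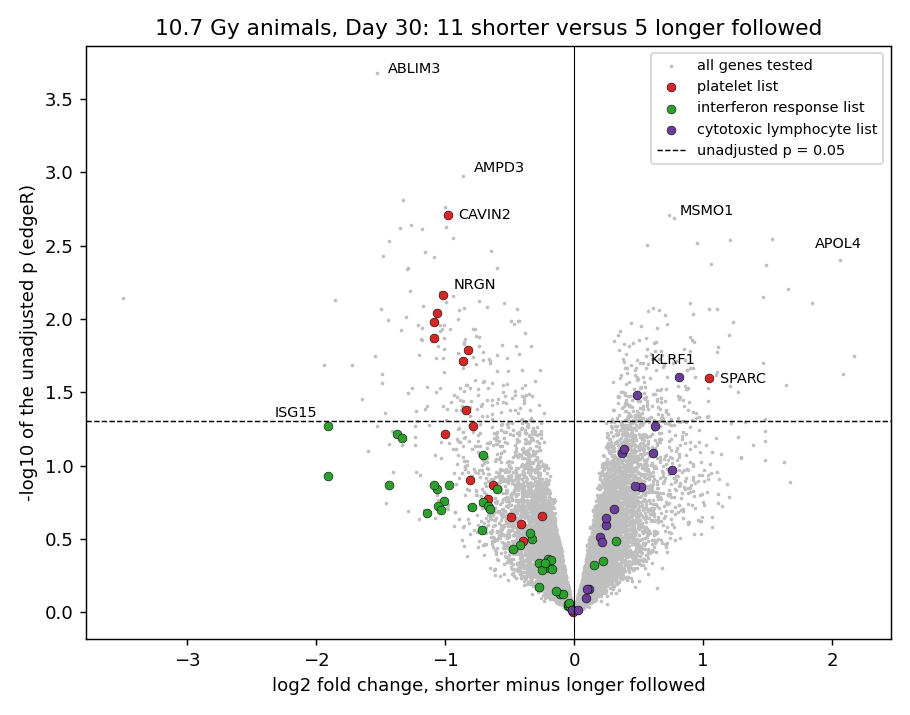
Log2 fold change of each of the 13751 genes on Day 30 (x axis) against -log10 of its unadjusted edgeR p (y axis). Red points are platelet, green points interferon response and purple points cytotoxic lymphocyte genes. No gene passed the adjusted threshold, 18 of 19 platelet genes lie left of 0 and 18 of 19 cytotoxic lymphocyte genes lie right of 0.

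Platelet genes had lower values in the shorter followed animals, without any of them being called. Of 19 genes tested 18 had a log2 fold change below 0, the median was -0.81 against 0.02 over all genes tested, and 8 genes were lower at an unadjusted p under 0.05 where 1.32% of all genes were. Platelet genes come from the same cells and their values move together, so they do not count as separate observations. The 8 genes were CAVIN2, which coats caveolae, NRGN, which binds calmodulin, THBS1, the adhesive granule protein thrombospondin, the receptor chains ITGA2B, GP1BB and GP9, SELP, the adhesion receptor P-selectin, and TUBB1, the tubulin of the platelet rim. Their log2 fold changes lay between -1.09 for GP1BB (95% confidence interval -1.92 to -0.25) and -0.82 for SELP (-1.47 to -0.17). SPARC, a secreted matrix protein that platelets also store, was the exception among the 19 genes, with 1.05 (0.15 to 1.94) and mean levels of 3.44 CPM in shorter and 1.55 CPM in longer followed animals. PPBP, the most abundant of the 19 genes, differed by -0.40 with an interval that holds 0 (-1.22 to 0.43).

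CAVIN2 had 391, 326, 270.2, 285 and 78.7 CPM in the longer followed animals last drawn on Day 90, 94, 120, 129 and 270, and 75.9 to 323 CPM (median 199.1) in the shorter followed animals. NRGN stood at 587, 309, 576, 503 and 162 CPM in the same 5 animals and between 150.2 and 687 CPM (median 211) in the shorter followed animals. In both genes the groups overlapped: 4 of 5 longer followed animals were above the shorter followed median, and the animal last drawn on Day 270 was among the lowest of all 16. The fold change was -0.98 for CAVIN2 (-1.55 to -0.41, unadjusted p = 0.00197) and -1.02 for NRGN (-1.72 to -0.32, unadjusted p = 0.00682).

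Among shorter followed animals platelet levels also differed between males and females. Summed over the 19 genes, the level was 1566 to 2722 CPM in the 4 shorter followed females and 3510, 6104, 5429 and 1337 CPM in the longer followed females last drawn on Day 94, 120, 129 and 270. Thus 3 of 4 longer followed females were above all 4 shorter followed females and 1 was below all of them. In males the 7 shorter followed animals had 3057 to 6360 CPM, and the only longer followed male had 5490 CPM. Shorter followed males were thus above shorter followed females without overlap, and the fit without sex as a term brought the platelet median from -0.81 to -0.27. Among females alone (4 against 4) the median was -0.94, with 18 of 19 genes lower. Without the 3 libraries of lowest depth it was -0.73, again with 18 of 19 lower. Leaving out 1 animal at a time kept the median between -1.0 (without the animal last drawn on Day 270) and -0.54 (without the animal last drawn on Day 120).

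**Figure D3:**
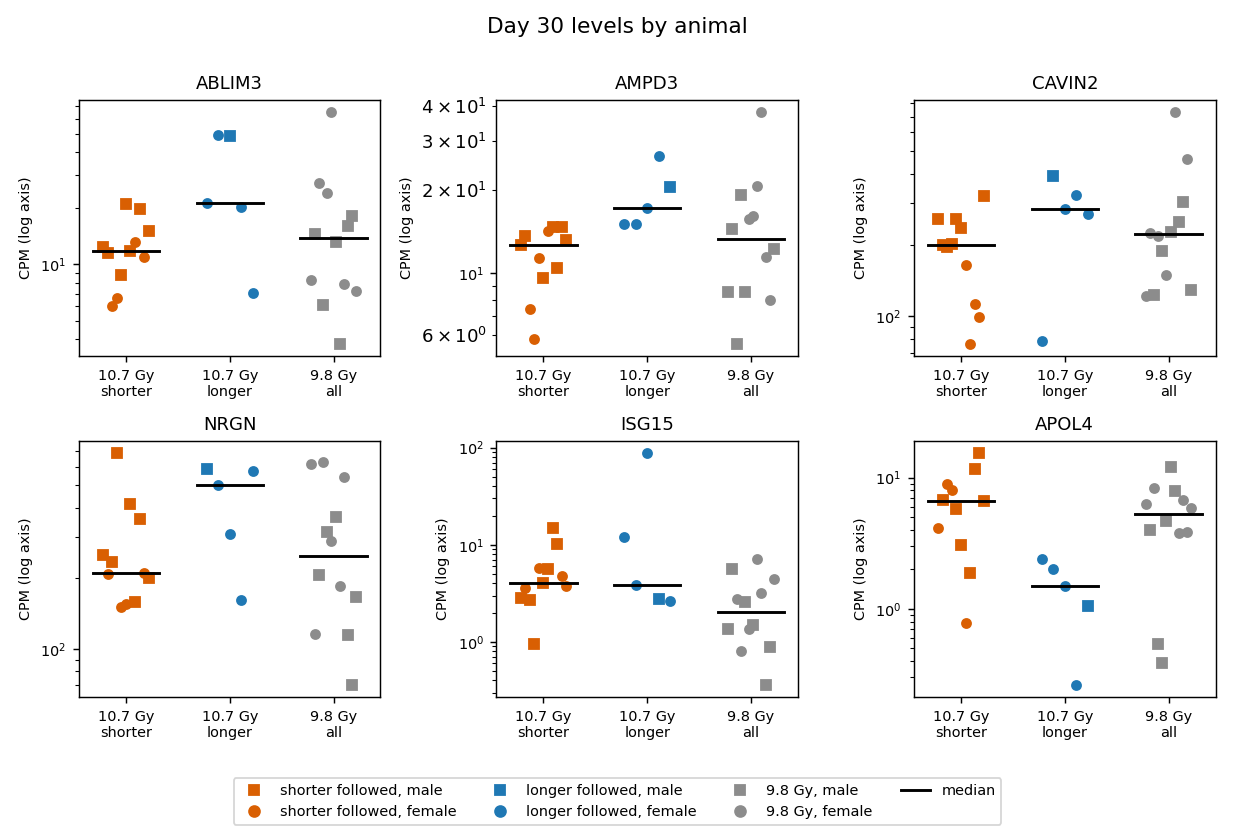
Day 30 level of 6 genes in each animal, as CPM on a log axis. Orange points are the 11 shorter and blue points the 5 longer followed animals of 10.7 Gy, grey points are the 12 animals of 9.8 Gy, squares are males, circles females and black lines the group medians. Only AMPD3 separates the shorter from the longer followed animals among these genes, and its 9.8 Gy values (5.54 to 38.1 CPM) span both groups.

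Other genes with the smallest p among those lower in the shorter followed animals were ABLIM3, AMPD3, GPT, ARHGAP6, TSPAN9, MYLK and CA8. Genes with a symbol that starts with LOC were not ranked, here or in the other direction. ABLIM3, an actin-binding LIM protein on chromosome 6 (146655599 to 146774644, Mmul_10), had the smallest p of the genes ranked. It stood at 48.6, 21.3, 49.1, 20.3 and 7.06 CPM in the animals last drawn on Day 90, 94, 120, 129 and 270 and at 6.03 to 21.1 CPM (median 11.8) in the shorter followed animals. Its log2 fold change was -1.53 (95% confidence interval -2.22 to -0.83, edgeR unadjusted p = 0.00021). The highest values belonged to the animals of Days 90 and 120, and the animal of Day 270 lay within the shorter followed range. TSPAN9, a tetraspanin of platelets and megakaryocytes, MYLK, the kinase of myosin light chains, and ARHGAP6 had log2 fold changes of -1.26, -0.99 and -1.0. In all 3 genes the animal of Day 270 had the lowest value of the 5 longer followed animals. GPT, the alanine aminotransferase, was near the detection floor, with 1.06 to 3.62 CPM in the longer and 0.428 to 1.58 CPM in the shorter followed animals, and 9 of 11 of these lay below every longer followed animal. CA8, a relative of carbonic anhydrases, differed by -1.35 (-2.15 to -0.54), and by -0.84 in the control samples (9 shorter and 3 longer followed).

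AMPD3, an AMP deaminase of red cells and other tissues (chromosome 14, 55169756 to 55227561), was 1 of 4 genes whose CPM did not overlap between the groups (0.0291% of those tested). Of these 4 genes 3 were lower (0.0218%) in the shorter followed animals. The shares were not set against those from exchanged follow-up labels, and by themselves they are no sign of a difference. For AMPD3 the longer followed animals had 20.4, 17.2, 15.01, 15.05 and 26.5 CPM in the order given above. The shorter followed animals had 5.81 to 14.7 CPM, a gap of little width. The log2 fold change was -0.86 (-1.32 to -0.40, unadjusted p = 0.00106) and stayed between -1.02 and -0.70 when each animal was left out. The other 3 genes were picked here because their values did not overlap. RECQL4, a DNA helicase, had 4.83 to 10.7 CPM in the shorter and 11.4 to 14.03 CPM in the longer followed animals, and FAM189A1 had 0.439 to 2.36 CPM against 2.75 to 3.66 CPM. MSRB3, a methionine sulfoxide reductase, was on the other side with 2.21 to 4.82 CPM against 0.434 to 2.13 CPM. At 9.8 Gy the Day 30 values of all 4 genes ran across both ranges, for RECQL4 from 4.59 to 12.8 CPM.

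Among ranked genes higher in the shorter followed animals the smallest p belonged to MSMO1, MTMR7, SGCB, SPATA1, RNASEH2B, APOL4, GGCT and HNMT. MSMO1, an enzyme of cholesterol synthesis on chromosome 5 (162734492 to 162750388), had 8.77 to 13.8 CPM in the longer followed and 13.3 to 28.1 CPM (median 18.8) in the shorter followed animals. Its log2 fold change was 0.74 (0.31 to 1.16, unadjusted p = 0.00194), and 10 of 11 shorter followed animals lay above every longer followed one. The same was so for MTMR7, a lipid phosphatase (0.77), SPATA1 (0.96) and RNASEH2B, a subunit of the enzyme that removes RNA from DNA (0.56). SGCB, a sarcoglycan of the muscle membrane, differed by 1.21 at levels under 5 CPM in all 16 animals. GGCT, of glutathione breakdown, and HNMT, which inactivates histamine, differed by 1.49 and 1.66, with confidence intervals from 0.53 to 2.45 and from 0.53 to 2.78.

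The largest difference among these was that of APOL4, an apolipoprotein L. It had 1.05, 1.51, 2.39, 2.03 and 0.262 CPM in the longer followed animals and 0.785 to 15.4 CPM (median 6.70) in the shorter followed animals. Of these 11 animals 9 lay above all longer followed ones, and the log2 fold change was 2.06 (0.75 to 3.38, unadjusted p = 0.00397). The difference had about the same size in the control samples, where it was 2.51 between 9 shorter and 3 longer followed animals. APOL4 has close relatives in the genome, and its counts depend on how reads shared with them were assigned.

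Interferon response genes, which are switched on by type I interferon, had a median log2 fold change of -0.38, with 39 of 42 genes lower in the shorter followed animals and 0 at an unadjusted p under 0.05 in either direction. The size of this median depended on which longer followed animals were included. ISG15, a ubiquitin-like protein, stood at 2.75, 88.4, 3.85, 12.2 and 2.62 CPM in the animals of Day 90, 94, 120, 129 and 270 and at 0.940 to 14.9 CPM (median 4.00) in the shorter followed animals. OAS1, which senses double-stranded RNA, stood at 9.17, 110.5, 13.9, 19.4 and 3.14 CPM and at 4.17 to 24 CPM (median 9.31). The animal last drawn on Day 94 was the only one of the 16 above 25 CPM in either gene. Without it the log2 fold change of ISG15 went from -1.90 to -0.03, that of OAS1 from -1.37 to -0.08, and the median of the list from -0.38 to -0.06. Without the male last drawn on Day 90 the median was -0.86. No longer followed male is then left, so this is the contrast among females alone, in which 39 of 42 genes were lower. Summed over the list, the longer followed females of Days 94, 120 and 129 had 10380, 5420 and 5426 CPM, above all 4 shorter followed females at 2786 to 4557 CPM, while the female of Day 270 had 3000 CPM. In shorter followed males the level reached 7805 CPM, against 2946 CPM in the longer followed male.

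Genes of cytotoxic lymphocytes, the natural killer cells and killer T cells, had higher values in the shorter followed animals, again with 0 called. Their median was 0.31, and 18 of 19 genes were above 0, of which 2 at an unadjusted p under 0.05 (KLRF1 and GZMB, where 1.7% of all genes were). Summed over the 19 genes, 10 of 11 shorter followed animals had 1718 to 2481 CPM, all above the 5 longer followed animals at 1330 to 1680 CPM, and the other one, a female last drawn on Day 77, had 1107 CPM, the lowest of all. KLRF1, an activating receptor of natural killer cells, had 18.8 to 27.9 CPM in the longer and 17.4 to 88.8 CPM in the shorter followed animals, a log2 fold change of 0.81 (0.12 to 1.51, unadjusted p = 0.0248). GZMB, the protease granzyme B, had 147 to 228 CPM and 135.3 to 373 CPM, a difference of 0.49 (0.04 to 0.94). The median was 0.44 among females and 0.36 without the 3 libraries of lowest depth.

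The other lymphocyte lists were nearer to 0. T cell genes had a median of 0.09 with 13 of 19 above 0, and 1 gene, CD2, an adhesion molecule of T and natural killer cells, was higher at an unadjusted p under 0.05 (0.46, 0.00 to 0.92). In the control samples the T cell median was already 0.19 with 17 of 19 above 0, and CD2 differed by 0.47. CD3G, a chain of the T cell receptor complex, differed by 0.35 (-0.12 to 0.83). B cell genes had a median of -0.19 with 18 of 22 lower and 0 at an unadjusted p under 0.05. In the control samples, between 9 shorter and 3 longer followed animals, the B cell median was already -0.20, with 21 of 22 lower. TNFRSF13C, the receptor for the survival factor BAFF, had 73.3, 105.6, 31.4, 47.3 and 131.5 CPM in the longer followed animals and 12.6 to 81.6 CPM in the shorter followed animals, and CD22, an inhibitory B cell receptor, differed by -0.45 (-1.02 to 0.12). Summed over the B cell list, the lowest level of all 16 animals, 1030 CPM, belonged to the longer followed animal of Day 120, and the highest, 3574 and 3405 CPM, to those of Days 270 and 94. Plasma cell genes had a median of 0.10 over 11 genes, and their smallest p values belonged to IRF4, a transcription factor (-0.35, -0.77 to 0.06), and DERL3, of protein export (-0.37, -0.86 to 0.12).

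**Figure D4:**
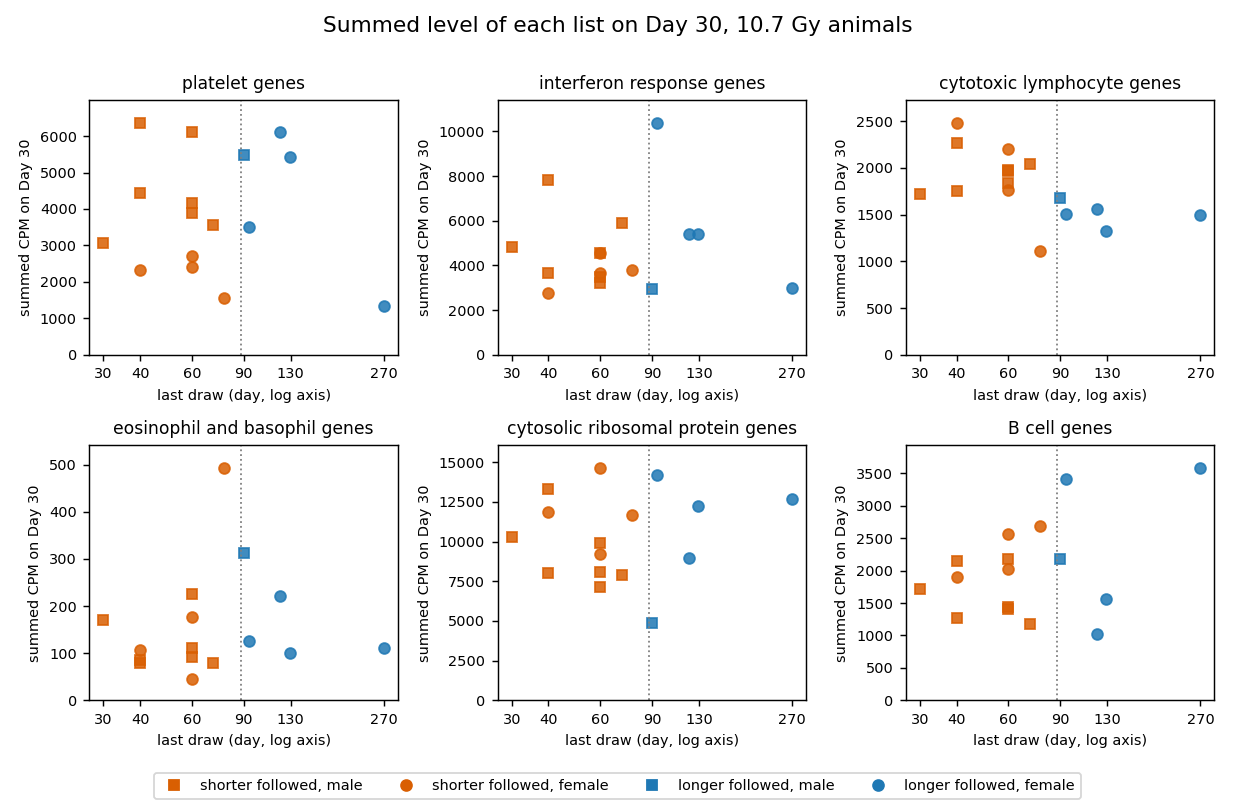
Summed CPM of 6 gene lists on Day 30 (y axis, from 0) against the day of the animal's last draw (x axis, log scale), with a dotted line just before Day 90. Orange points are shorter and blue points longer followed animals, squares males and circles females. The cytotoxic lymphocyte level is 1330 to 1680 CPM in the 5 longer followed animals and 1718 CPM or more in 10 of the 11 others, and the highest interferon level, 10380 CPM, belongs to the animal last drawn on Day 94.

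In myeloid cells 0 genes were called. Monocyte genes had a median of 0.05 over 14 genes and mature neutrophil genes of 0.00 over 18, with 0 genes of either list at an unadjusted p under 0.05. CX3CR1, the fractalkine receptor, had 83.3 to 523 CPM in the shorter followed animals, and 9 of 11 of these were above every longer followed animal (0.57, -0.05 to 1.20). Which blood cells its RNA came from was not tested. LYZ, the lysozyme of monocytes and granulocytes, differed by 0.31 (-0.34 to 0.97), and this turned below 0 in the fit without sex. S100A8 and S100A9, the calprotectin pair of neutrophils and monocytes, had higher values by 0.97 (-0.08 to 2.02) and 0.87 (-0.13 to 1.87). Neutrophil granule genes had a median of 0.12 over 15 genes, and CHIT1, a chitinase, and LTF, lactoferrin, had intervals that held 0. In the list of myeloid activation and interleukin-1 genes the median was 0.07 over 25 genes. IL1RL1, the receptor of interleukin-33, was its only gene at an unadjusted p under 0.05, with -1.07 (-2.03 to -0.11) and levels of 2.89 to 13.5 CPM in the longer against 0.802 to 13.1 CPM in the shorter followed animals. In the control samples IL1RL1 already differed by -0.90. IL18 differed by 0.52 (-0.16 to 1.19).

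Complement genes had a median of -0.08 over 13 genes. C1QA, a chain of C1q, the starter of the classical pathway, had 5.24, 4.77, 10.8, 11.9 and 2.09 CPM in the longer followed animals and 0.621 to 6.47 CPM (median 2.82) in the shorter followed animals. Its log2 fold change was -1.44 (-2.50 to -0.39, unadjusted p = 0.0101), and the animals of Days 120 and 129 lay above all others. CFB, of the alternative pathway, differed by 0.78 (-0.04 to 1.61). Of 13 eosinophil and basophil genes with counts, 8 passed the filter on low counts, with a median of -0.51. EPX, the peroxidase of eosinophils, stood at 21.4, 0.628, 29.6, 1.74 and 12.7 CPM in the longer and at 0 to 13.3 CPM (median 2.79) in the shorter followed animals, a log2 fold change of -1.94 (-3.55 to -0.33, unadjusted p = 0.0207). The longer followed animals thus split into 3 high and 2 low ones. In the control samples, between 9 shorter and 3 longer followed animals, the EPX difference was -1.63 and the median of the list -0.79, with 7 of 8 genes lower. Without the animal of Day 90 the EPX difference was -1.19. GATA2, a transcription factor of basophils and progenitors, differed by -0.90 (-1.88 to 0.07), and by -0.45 without the animal of Day 90. Its difference in the control samples was -1.02.

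Red cell genes varied widely in both groups. SLC4A1, the anion exchanger of red cells, ran from 227.1 to 14020 CPM in the shorter and from 525 to 3985 CPM in the longer followed animals, a log2 fold change of 1.15 with an interval from -0.61 to 2.91. KLF1, a transcription factor of erythroid cells, differed by 0.89 (-0.66 to 2.45), a sign that turned in the fit without sex. The median over 32 erythroid genes was -0.04, with 0 genes at an unadjusted p under 0.05. Cytosolic ribosomal protein genes were higher in 29 of 29, with a median of 0.27, and 0 reached an unadjusted p under 0.05. This value hung on the male last drawn on Day 90, whose summed level of 4851 CPM was the lowest of all 16. Without that animal the median was -0.01. No longer followed male is then left, so this is the contrast among females alone. In the fit without sex the median was -0.02. RPL37 and RPL7 had the smallest p of the list (0.66, -0.12 to 1.45, and 0.51, -0.17 to 1.19). Ribosomal protein genes have many processed copies in the genome, so that their counts are less certain.

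In the 5 stress and growth lists 4 genes had an unadjusted p under 0.05, a share near the 3.02% of all genes. Glucocorticoid response genes, which dexamethasone would induce, had a median of -0.10 over 21 genes with 16 lower, and KLF9 and IRS2 differed by -0.39 (-0.86 to 0.09) and -0.34 (-0.87 to 0.19). Targets of p53, the transcription factor that answers DNA damage, had a median of -0.06 over 23 genes. CDKN1A, the cell cycle inhibitor p21, differed by -0.51 (-1.02 to 0.00) with 7 of 11 shorter followed animals below every longer followed animal, and BBC3, the death-promoting PUMA, by -0.44 (-0.95 to 0.07). Cell division genes had a median of 0.11 over 26, with the cyclin CCNB1 higher at an unadjusted p under 0.05 (0.42, 0.01 to 0.83) and the replication factor MCM2 at -0.50 (-1.03 to 0.03). Hypoxia and glycolysis genes had a median of -0.01 over 23, with P4HA1, a collagen prolyl hydroxylase, at 0.34 (0.08 to 0.60) and PFKFB3, a driver of glycolysis, at -0.50 (-0.97 to -0.02). The TGF-beta pathway, which drives fibrosis, had a median of -0.11 over 19 genes. LTBP1, which holds latent TGF-beta and is stored in platelets too, was at -0.66 (-1.19 to -0.12) and SKIL, an inhibitor of the pathway, at 0.36 (-0.11 to 0.84).

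The study's survival models on pooled Day 3 to Day 21 samples, for both sexes together, males and females, listed 28 genes. Genes listed only by its single-day survival models are not among them. The models weighed many genes together, used both dose arms, and sorted samples into control, short, medium and long survival. Here each gene was tested by itself on Day 30, between shorter and longer followed animals of the higher dose arm. Whether the models hold on Day 30 was not tested. Of the 28 genes 26 were tested, and 0 reached an unadjusted p under 0.05 between these animals. The list had been chosen on samples of these same animals, and so it is not independent of them. Its median was -0.08, with 17 genes lower and 9 higher. The smallest p belonged to CPED1, with 47.02, 31.6, 15.7, 13.3 and 1.05 CPM in the longer followed animals and 0.877 to 47.6 CPM in the shorter followed animals (-1.53, -3.08 to 0.03). LOC708725 followed with 19.2, 19.0, 70.7, 45.7 and 11.6 CPM and 0.401 to 38.8 CPM (-1.41, -2.87 to 0.05), and KIAA1549 differed by 0.63 (-0.07 to 1.33). For CPED1 the fit without sex gave -0.62. Values of this gene at 9.8 Gy ran from 1.27 to 101.4 CPM on the same day.

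The same contrast was made on the other sampling days, with the group of each animal unchanged. The edgeR test called 0 genes on each of the control, Days 3, 6, 9, 15, 21, 40 and 60, and between 0.960% (Day 6) and 5.24% (Day 60) of the genes tested had an unadjusted p under 0.05. Animals in the contrast numbered 9 against 3 on the control and Days 3, 15 and 40, 7 against 5 on Day 60 and 11 against 5 on the remaining days. The samples come from the same animals, so that the days do not repeat each other independently. The platelet median was near 0 (-0.02) in the control samples. The Day 3 value was 0.47, with 18 of 19 genes higher and 4 of them at an unadjusted p under 0.05 (2.17% of all genes). It was below 0 at each of the next draws, with -0.26 (Day 6), -0.54 (Day 9, 19 of 19 lower), -0.18 (Day 15) and -0.46 (Day 21). After the -0.81 of Day 30 it was 1.30 at Day 40, when 18 of 19 genes were higher in the shorter followed animals, 0 of them at that p, and -0.31 at Day 60. The days did not hold the same animals. The longer followed females of Days 120 and 129, whose platelet levels on Day 30 were high, had no sample on the control and Days 3, 15 and 40, and the platelet median was below 0 on each of the 5 days with all 5 longer followed animals. A change between days and a change in the animals sampled cannot be told apart here. On Day 21 18 of 19 were lower, 2 at an unadjusted p under 0.05 (1.27% of all genes), and on Day 60 17 of 19 were lower, 1 at that p (2.77%).

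**Figure D5:**
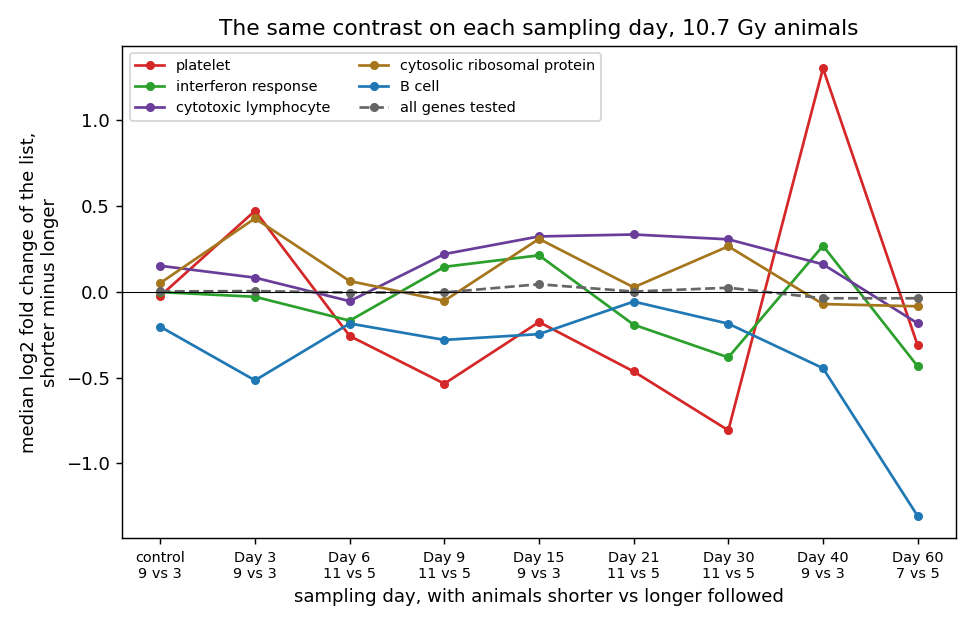
Median log2 fold change, shorter minus longer followed, of 5 gene lists and of all genes tested (y axis) on each sampling day (x axis, with the numbers of shorter and longer followed animals). The platelet median falls to -0.81 on Day 30 and is 1.30 on Day 40, the B cell median is -1.31 on Day 60, and the median of all genes tested stays within 0.05 of 0.

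The other lists had their own courses. Cytotoxic lymphocyte genes already had a median of 0.15 in the control samples, with 15 of 19 higher, and 0.08 on Day 3 and -0.05 on Day 6. Their medians lay between 0.22 and 0.33 on Days 9 to 30 and at -0.18 on Day 60. On Day 21, 3 of 19 were higher at an unadjusted p under 0.05 (1.03% of all genes). Interferon response genes ran from -0.43 (Day 60) to 0.27 (Day 40) and ribosomal protein genes were highest on Day 3, at 0.43, with 11 of 29 higher at an unadjusted p under 0.05 (2.17%). On Day 60 the B cell median was -1.31 with 22 of 22 genes lower, 5 of them at an unadjusted p under 0.05 (2.77% of all genes), while monocyte genes had 0.66 with 4 of 14 higher at that p (2.47%) and neutrophil granule genes 0.97. T cell genes had -0.51 with 19 of 19 lower, and glucocorticoid response genes 0.61 with 20 of 21 higher. Day 60 was itself the last draw of 3 shorter followed males and 2 shorter followed females. Those last drawn on Days 30 and 40 had no Day 60 sample. Whether dexamethasone or a late stage of illness had a part in these values was not tested. Of the 56 genes named by rule 15 had the same sign on all 9 days, a share that was not set against that of all genes tested. The genes were named from Day 30, which is among these days, and the days share animals. AMPD3 was lower in the shorter followed animals on all 9 days, between -1.07 (Day 3) and -0.15 (Day 60), and APOL4 was higher on all 9 days, between 1.12 (Day 60) and 2.51 (control). CPED1 was lower on all 9 days, between -2.03 and -1.27, and HNMT higher on all 9, between 0.81 and 1.66. ABLIM3 was lower on 8 of 9 days, with 0.74 on Day 40.

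Whether the Day 30 values had moved since an earlier sample was tested within animals. From Day 21 to Day 30, over all 16 animals with each as its own block, edgeR called 0 genes whose change differed between shorter and longer followed animals. The smallest adjusted p was 0.661, and 964 genes (7.01%) had an unadjusted p under 0.05. The platelet median of this difference of changes was -0.11, and 12 of 19 genes were below 0. MSMO1 differed in its change by 0.63, SPATA1 by 1.04 and KLRF1 by 0.74, with unadjusted p values of 0.00437, 0.00359 and 0.012, whereas the differences were -0.01 for ABLIM3 and 0.03 for AMPD3. These genes were named for a small p on Day 30 and the change contains the same Day 30 values, so that these p values are not independent of that choice. Day 21 libraries carry several suffixes, and within the 8 animals with suffix S0 on both days (6 shorter and 2 longer followed) 0 genes were called as well. From the control to Day 30, over the 12 animals with a control sample (9 shorter and 3 longer followed), 0 genes were called, with 0.902% of genes at an unadjusted p under 0.05 and a smallest adjusted p of 0.998. The platelet median of that difference was -0.14. In these fits each animal served as its block, which takes up sex differences that stay the same over time. A difference between the sexes in the change itself was not modelled, and it overlaps with follow-up.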

How the data were processed

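The authors trimmed paired reads with cutadapt 2.10, used STAR 2.7.6a for alignment (Mmul_10, RefSeq annotation) and Subread 2.0.1 for counting. Whether strand was used in counting is not given in the sources used here. Their deposited table holds raw counts of 21070 genes. A second deposited table holds log2 values scaled by the upper quartile, used here as an alternative. Genes with at least 3 counts in 80% of the 304 samples were tested in edgeR 4.0.16 (R 4.3.3, quasi-likelihood) with upper quartile scaling, sex as a term and Benjamini-Hochberg adjustment. DESeq2 1.42.0 and limma 3.58.1 gave alternatives. The scripts were tested on simulated data. Replicate numbers run within each group and day, so the same number on different days can mean different animals. The animal itself was the block in the tests of change.

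The groups and gene lists were chosen with earlier results of these data known. Named genes are the 8 of smallest p in each direction (no gene was called), the 2 of smallest p in each list and 3 of the study's survival genes. Genes with a symbol that starts with LOC were left out of the 8 in each direction. The filter left out the Y chromosome genes, so their levels serve only as a check of sex. CPM are counts scaled by upper quartile and library size. Replicates are separate animals, with 1 sample each.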

Additional observations from a re-analysis of the deposited data

Results flagged for a closer look

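Dixon's criterion was applied to the Day 30 CPM of the 5 longer followed animals. In 5 of 56 genes named above the highest or lowest value was far from the other 4. The criterion flags about 1 in 20 groups by chance if values are normally distributed, which CPM need not be. Some of these genes also move together, so 5 of 56 cannot be set against that rate. Interferon genes were high in the animal last drawn on Day 94, with ISG15 at 88.4 CPM (2.62 to 12.2 in the other 4) and OAS1 at 110.5 CPM (3.14 to 19.4). The animal last drawn on Day 120 had the highest CX3CR1 level, 213.04 CPM against 154.9 to 170.0 CPM. The animal last drawn on Day 270 had the highest levels of 2 neutrophil granule genes, CHIT1 at 6.14 CPM (1.46 to 2.26 in the others) and LTF at 39.6 CPM (8.77 to 13.9). The shorter followed group, of more than 10 animals, was not examined in this way.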

How the results depend on the processing

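The count of called genes was 0 under each of the 27 alternatives run for Day 30. It was also 0 under those run for both tests of change, among them the fits without the animal block (0 genes). On the other days it was 0 with no sex term and with TMM scaling. The number of Day 30 genes at an unadjusted p under 0.05, 415 as reported, was 652 with no filter on low counts, 806 with no sex term, 160 when all 28 Day 30 samples shared the spread, 211 with the animal of Day 90 counted as shorter followed and 188 with log2 of the last draw day in place of the groups. With 1 animal left out it ranged from 220 (without the longer followed male of Day 90) to 747 (without the shorter followed female of Day 77), and it was 254 without 1 of the shorter followed females of Day 60. The sign turned for LYZ, with -0.011 when sex was no term and -0.033 to 0.49 with 1 animal left out, and for KLF1, with -0.085 when sex was no term. It also turned for the median of ribosomal protein genes, which was -0.019 with no sex term and -0.010 to 0.39 with 1 animal left out. It was -0.010 in females and with the animal of Day 90 counted as shorter followed. With that animal left out or counted as shorter followed, the contrast rests on females alone, so these settings are not separate checks. Medians of lists near 0 turned as well. Among females they were -0.14 for neutrophil granule, -0.027 for myeloid activation and interleukin-1 and 0.012 for erythroid genes. Without the 3 libraries of lowest depth they were 0.071 for erythroid, 0.030 for complement, 0.022 for hypoxia and glycolysis and 0.0071 for mature neutrophil genes. The medians of the platelet and interferon lists kept their sign under every alternative run for them, as did the other 1449 values of named genes. The size of these medians did move, as given above. That of the interferon list came near 0 without the animal last drawn on Day 94. That of the platelet list was much smaller in the fit without sex. The causes of these changes were not tested. Follow-up overlaps with sex, and with 1 longer followed male the contrast within males was not tested.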
